A study of Mus musculus with 8 samples.

Results

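The acute phase proteins are plasma proteins whose synthesis by the liver shifts with inflammation. They were followed here through 10 genes, 8 of them positive acute phase genes (Saa1, Saa2, Saa3, Orm1, Orm2, Hp, Lcn2 and Hpx) and 2 negative ones (Alb and Ttr). Their probes were taken from the arrays by gene name, which gave 11 of the 41174 non-control probes for 10 of the 19505 genes named on them. Of these, 9 probes of 8 genes carried the member's own symbol, and the probes of Alb and Hpx, listed under the older symbols Alb1 and Hpxn, were matched by their RefSeq accession. Saa1 had 2 probes and every other member had 1. All 11 were well above background on all 8 arrays, so no member was lost to the filter on dim probes.

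Liver RNA came from male wild-type C57BL/6 mice (C57BL/6J in the study's methods) that were administered either standard chow (STD diet, 4 mice) or a high-fat, high-cholesterol atherogenic diet that also contained cholic acid (ATH diet, 4 mice) for 4 weeks. The labels give an age of 14 to 17 weeks at the start. Each mouse was hybridized to 1 Cy3 array, and all arrays of a diet lay on a slide of their own, and the slide and the diet therefore cannot be told apart. Of the spots on an array, 72.3% to 77.8% were well above background, among them those of the hepatocyte markers Apob, Cps1 and Arg1 on all 8 arrays.

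In an acute phase response, interleukin-6 and related cytokines act on hepatocytes through the receptor subunit gp130 (Il6st) and the transcription factor STAT3, while interleukin-1 and tumor necrosis factor act through NF-kappaB, and C/EBP factors act beside both. Positive acute phase genes are then transcribed more and secreted in larger amounts, and negative ones, which encode abundant carrier proteins, are transcribed less. The serum amyloid A genes have the widest range of the group in the mouse, and Saa3 and Lcn2 are also made by cells other than hepatocytes, among them macrophages and neutrophils.

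Each value below is a processed signal on the log2 scale from which the 75th percentile of its array was subtracted (the scaled log2 level). A difference is the mean of the ATH diet arrays minus the mean of the STD diet arrays. Single levels of different probes are not set against each other, since probes differ in brightness for equal amounts of RNA. Sums and medians of levels over several genes do mix probes of different brightness. In whole liver, a change in the number of cells of a type and a change in RNA per cell cannot be told apart.

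The probes that carry the main differences are given here, 5′ to 3′ and in lower case throughout, so that a reader can see which transcript each value stands for. Positions are those of the array design (mm7). The Saa1 probe lies on the minus strand at chr7:42916998-42917470 and spans a splice junction, as 60 bases of probe cover 473 bases of genome. The Saa3 probe (chr7:42888862-42888921) lies in the same gene cluster. The Lcn2 probe (chr2:32392828-32393072, minus strand) is also spliced, and the Alb probe is at chr5:90443687-90443746 on the plus strand.
Saa1 probe: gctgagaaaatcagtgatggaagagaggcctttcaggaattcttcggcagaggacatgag
Saa3 probe: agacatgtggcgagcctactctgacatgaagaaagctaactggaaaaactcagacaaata
Lcn2 probe: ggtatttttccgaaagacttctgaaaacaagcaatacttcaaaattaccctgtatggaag
Alb probe: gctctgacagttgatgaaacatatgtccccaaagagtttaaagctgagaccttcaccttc

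The serum amyloid A genes and the Orm genes are close paralogs. The unspliced Saa1 probe (chr7:42916901-42916960) and the Saa2 probe (chr7:42930366-42930425) lie within the same stretch of chromosome 7, and the array's annotation lists the Saa1 transcript beside Saa3's own for the Saa3 probe. How far each of these probes reads its neighbour's transcript is uncertain. The Orm1 and Orm2 probes (chr4:62779145-62779752 and chr4:62797641-62797700) carry the same doubt, with Orm3 between the loci.

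One array has to be described before any difference between the diets. STD replicate 4 had the highest scaled log2 level of all 8 arrays for 9 of the 11 member probes, which are all probes of the 8 positive genes, whereas over all detected probes it was the highest array for 15.7%. Without scaling it was the highest for 6 of the 11 (all Saa and Orm probes), against 3.94% of all detected probes, and Lcn2, Hp and Hpx then had at least 1 ATH diet array above it. Its Alb level was 0.04 log2 units below, and its Ttr level 0.19 above, the median of the other 3 STD diet arrays.

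The 31056 detected probes were ordered by how far STD replicate 4 stood above the highest of the other 3 STD diet arrays, a measure chosen after the values were seen. The first 5 places were held by members: Lcn2 (6.66 log2 units above), Saa3 (5.11), both Saa1 probes (4.61 and 4.34) and Saa2 (4.02). Orm2 stood at place 75 (1.51), Orm1 at 162 (1.15), Hpx at 273 (0.92) and Hp at 665 (0.54). Orm3, a paralog of the Orm members that is not one of them, was at place 8 with 3.31. STD replicate 4 exceeded the other 3 arrays of its diet by over 1 log2 unit for 222 probes, within the 131 to 234 probes for which each of the 8 arrays did so. Among the 222 were 7 member probes, and on the other 7 arrays there were 0.

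This array was also read on macrophage genes outside the members. Gpnmb had the largest difference among the called macrophage markers in the fit that counted this array as STD. Its level here is therefore no independent check of the diet label. Gpnmb, a macrophage gene of lipid-loaded tissue, was not well above background on any of the 4 STD diet arrays, STD replicate 4 included. It had scaled log2 levels of -2.91 to 1.59 on the ATH diet arrays, so that this array stood with its labelled diet for that gene. Trem2, another called macrophage marker, differed from Gpnmb in this. On STD replicate 4 it stood over 1 log2 unit above the other STD diet arrays. Results are given with all 8 arrays and then without STD replicate 4.

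**Figure D1:**
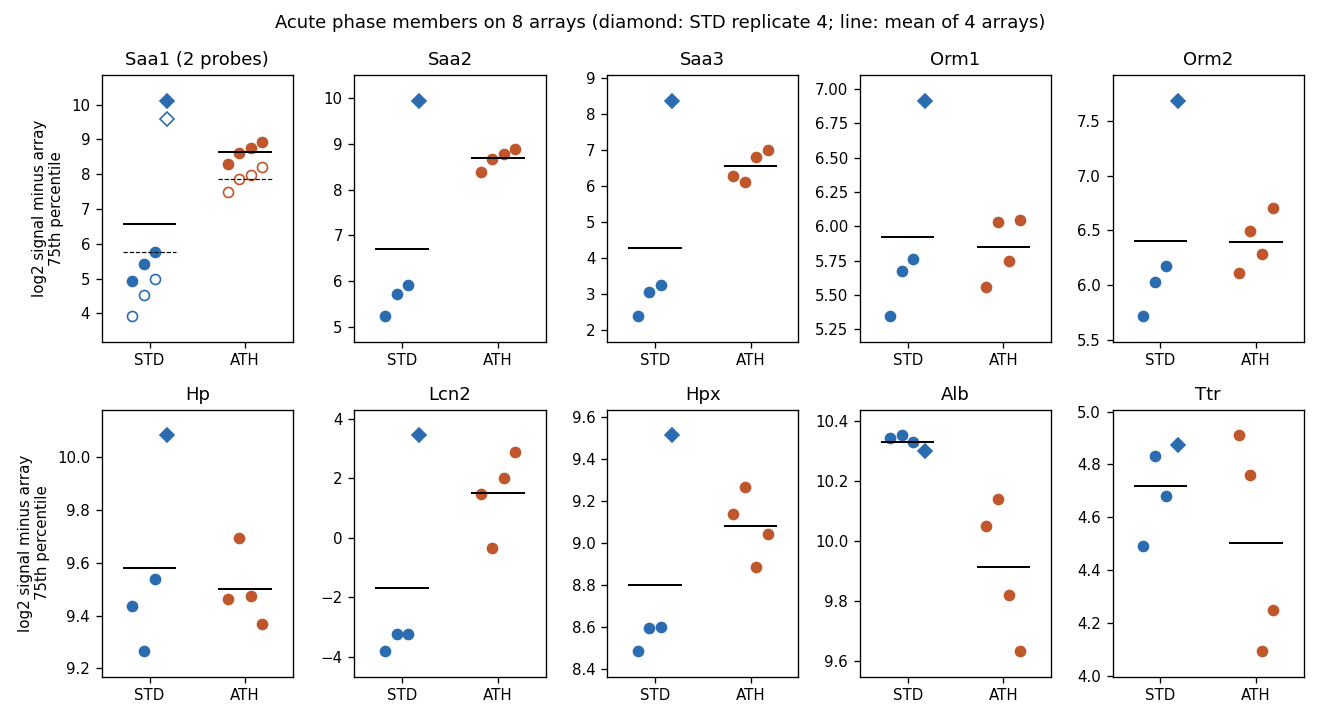
Scaled log2 level of the 10 member genes on 4 STD diet and 4 ATH diet arrays, with each panel on its own axis. The line is the mean of 4 arrays, open symbols and the dashed line are the spliced Saa1 probe, and the diamond is STD replicate 4. The diamond lies above all other arrays for the 8 positive members. It lies near the other STD diet arrays for Alb and Ttr, as the lowest of that diet for Alb and the highest for Ttr.

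With all 8 arrays, 0 of the 11 member probes passed an adjusted p of 0.05 (limma, Benjamini-Hochberg over 31056 detected probes), where 8% of all detected probes passed. By the same fit 1 of the 11 had an unadjusted p under 0.05 (Alb), against 28.4% of all probes, and the methods' test with unequal variances also called 0 (0.0708% of all probes). Without STD replicate 4, 5 of the 11 passed, all higher on the ATH diet (both Saa1 probes, Saa2, Saa3 and Lcn2), and 4 of them passed at 0.01. That array was singled out by its levels of these same probes, so the p-values without it are conditional on that choice and are no independent test, and leaving out any other array gave 0. In that fit 0.609% of all detected probes were called higher at 0.05 and 0.0612% at 0.01. With the replicate number as a block and without this array, 4 of the 11 passed (both Saa1 probes, Saa2 and Saa3), against 0.0451% of all probes called higher. In the other settings without this array, 8 of the 11 passed with no scaling (8.34% of all probes called higher), 5 with median scaling (0.679%), 6 with quantile normalization (0.763%), 6 when scaled on the spike-in probes (1.28%) and 6 with normexp background correction (1.02%).

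Saa1 encodes an acute phase apolipoprotein of high-density lipoprotein. Its first probe (the unspliced one) had scaled log2 levels of 4.92, 5.42, 5.77 and 10.12 in STD replicates 1 to 4 and of 8.30, 8.61, 8.74 and 8.93 in ATH replicates 1 to 4. The 4 ATH diet arrays lay within 0.62 log2 units of each other, above 3 STD diet arrays and below the other one. The difference was 2.09 (SE 0.99, limma adjusted p = 0.203), and without STD replicate 4 it was 3.27 (SE 0.24, limma adjusted p = 0.00348), a fold of 9.67.

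The spliced Saa1 probe gave the same order of the 8 arrays. Its levels were 3.93, 4.53, 4.98 and 9.59 on the STD diet and 7.48, 7.85, 7.97 and 8.20 on the ATH diet. The difference of 2.12 (SE 1.07) had a limma adjusted p of 0.228 with all arrays, and of 0.00392 for a difference of 3.40 (SE 0.27) without STD replicate 4. In unscaled signal this probe read 7275, 11153 and 14561 on STD replicates 1 to 3, 346323 on STD replicate 4, and 109576 to 207047 on the ATH diet arrays.

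Saa2, the neighbouring serum amyloid A gene, had levels of 5.24, 5.73, 5.92 and 9.94 on the STD diet arrays and of 8.39, 8.67, 8.78 and 8.89 on the ATH diet arrays. Both diets had 3 or more arrays close together, and STD replicate 4 alone made them overlap. The difference was 1.98 (SE 0.90, limma adjusted p = 0.188), and without that array 3.06 (SE 0.20, limma adjusted p = 0.00305), a fold of 8.31.

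Saa3, the family member that macrophages and other cells also make, read 2.39, 3.06, 3.26 and 8.37 on the STD diet arrays. On the ATH diet arrays it read 6.28, 6.12, 6.81 and 7.01, again above STD replicates 1 to 3 and below STD replicate 4. The difference of 2.28 (SE 1.15, limma adjusted p = 0.225) became 3.65 (SE 0.29, limma adjusted p = 0.00392) without STD replicate 4, a fold of 12.6. Its STD diet SD with all 4 arrays was 2.76, against an ATH diet SD of 0.42.

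Lcn2 encodes lipocalin 2, a secreted protein that withholds iron-carrying siderophores from bacteria. It had the widest range of the members. Its levels were -3.79, -3.22, -3.22 and 3.44 on STD replicates 1 to 4 and 1.49, -0.35, 1.995 and 2.87 on ATH replicates 1 to 4. In unscaled signal these were 34, 52, 49 and 4871 on the STD diet and 1725, 435, 2735 and 5139 on the ATH diet. The ATH diet arrays differed among themselves by 9.30-fold, with replicate 2 the lowest, and each was above STD replicates 1 to 3. The difference was 3.20 (SE 1.52, limma adjusted p = 0.202) with all arrays and 4.92 (SE 0.66, limma adjusted p = 0.018) without STD replicate 4.

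The Orm genes encode alpha-1-acid glycoprotein, a carrier of basic drugs in plasma. Orm1 had levels of 5.35, 5.67, 5.76 and 6.92 on the STD diet and of 5.56, 6.03, 5.75 and 6.05 on the ATH diet, and Orm2 had 5.72, 6.03, 6.18 and 7.69 against 6.11, 6.49, 6.28 and 6.70. For both, STD replicate 4 was the highest array and the ATH diet arrays overlapped STD replicates 1 to 3. The differences were -0.08 (SE 0.31, limma adjusted p = 0.889) for Orm1 and -0.0054 (SE 0.39, limma adjusted p = 0.994) for Orm2. Without STD replicate 4 they were 0.25 (SE 0.18, limma adjusted p = 0.421) and 0.42 (SE 0.19, limma adjusted p = 0.220), and with all 8 arrays both were above 0 with no scaling (0.37 and 0.44).

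Hp and Hpx encode haptoglobin and hemopexin, which bind free hemoglobin and free heme. Hp read 9.44, 9.27, 9.54 and 10.08 on the STD diet arrays and 9.46, 9.69, 9.48 and 9.37 on the ATH diet arrays, with full overlap. Its difference was -0.08 (SE 0.18, limma adjusted p = 0.800; 0.37 with no scaling), and 0.086 (SE 0.14, limma adjusted p = 0.742) without STD replicate 4. Hpx read 8.49, 8.59, 8.60 and 9.51 on the STD diet arrays and 9.14, 9.27, 8.88 and 9.04 on the ATH diet arrays. All 4 ATH diet arrays were above STD replicates 1 to 3, by less than STD replicate 4 was. The Hpx difference was 0.29 (SE 0.23, limma adjusted p = 0.438), and 0.52 (SE 0.14, limma adjusted p = 0.0901) without STD replicate 4. With no scaling and all 8 arrays it was 0.73 (limma adjusted p = 0.0375), the single member called there, where 22.5% of all detected probes were called higher.

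**Figure D2:**
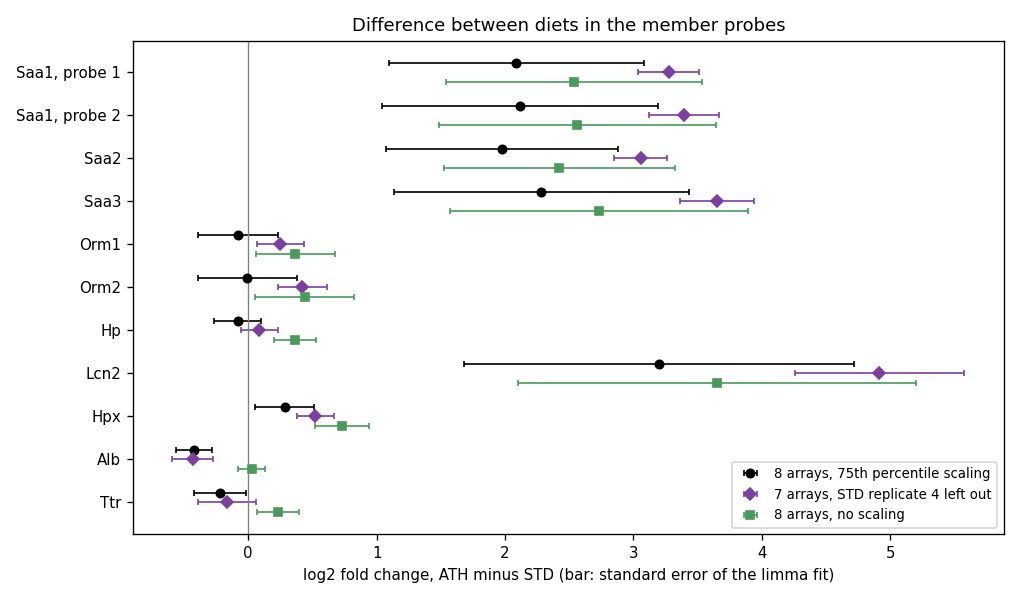
Difference between the diets (log2, ATH minus STD) of the 11 member probes from 3 limma fits, with bars for the standard error. For the Saa probes and Lcn2 the estimate is higher and the bar shorter without STD replicate 4, and for Orm1, Orm2, Hp, Alb and Ttr the sign differs between the scaled and the unscaled fit.

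The negative members did not share the pattern of STD replicate 4. Alb encodes albumin, the main carrier protein of plasma. Its scaled levels were 10.34, 10.35, 10.33 and 10.30 on the STD diet and 10.05, 10.14, 9.82 and 9.63 on the ATH diet. All 4 ATH diet arrays were below all 4 STD diet arrays, which made Alb 1 of 11 member probes without overlap, in a background of 13.8% of detected probes lower without overlap and 6.01% higher. The difference was -0.42 (SE 0.14, limma adjusted p = 0.0896), and -0.43 (SE 0.16, limma adjusted p = 0.157) without STD replicate 4.

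The size of the Alb difference depended on the scaling. The 75th percentile was 0.45 log2 units higher on the ATH diet arrays (spike-in probes 0.14 higher), and with no scaling Alb differed by 0.027 (SE 0.11, limma adjusted p = 0.873) and with spike-in scaling by -0.11 (SE 0.11). Its unscaled signals were 620120, 630112, 593298 and 565729 on the STD diet and 652703, 625255, 619522 and 558451 on the ATH diet, near the saturation values of the scans, which were 654780 to 663799. The saturation mark was set on ATH replicates 1 and 2 and on no STD diet array. Signals this near saturation can be compressed, so neither value bounds the Alb difference. No other member probe was marked saturated.

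Ttr encodes transthyretin, the carrier of thyroxine and of retinol-binding protein. Its levels were 4.49, 4.83, 4.68 and 4.87 on the STD diet and 4.91, 4.76, 4.09 and 4.25 on the ATH diet. The diets overlapped, with ATH replicate 1 the highest array and ATH replicate 3 the lowest. The difference was -0.22 (SE 0.20, limma adjusted p = 0.508), -0.16 (SE 0.23) without STD replicate 4 and 0.23 (SE 0.16) with no scaling.

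**Figure D3:**
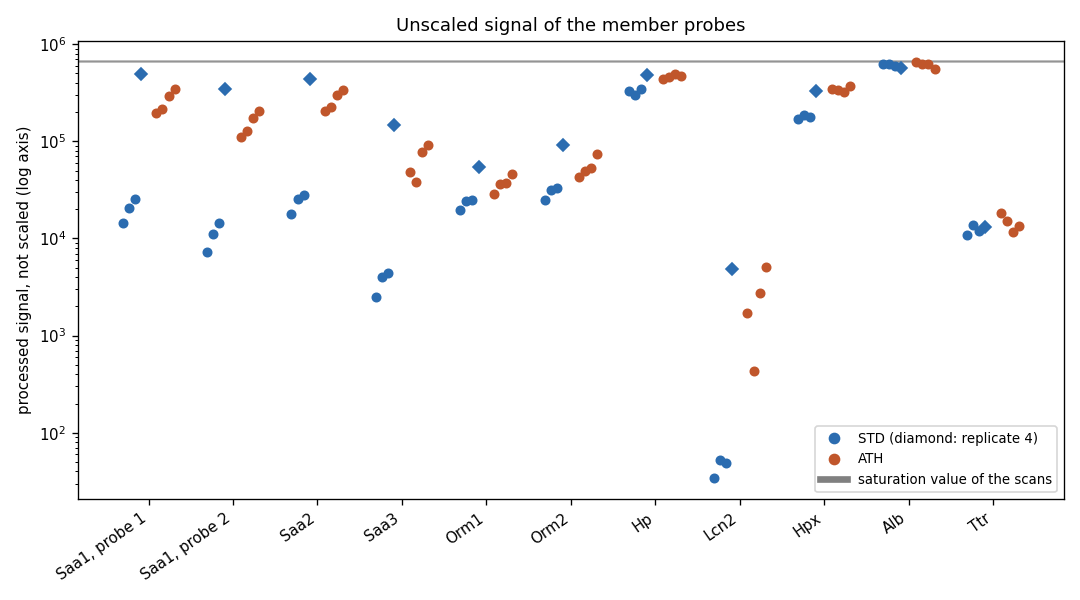
Unscaled processed signal (log axis) of the 11 member probes on the STD and ATH diet arrays, with STD replicate 4 as a diamond and the saturation values of the 8 scans as a grey band. Alb lies just under the band on all 8 arrays, whereas Lcn2 runs from 34 to 5139.

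The positive and negative genes were set together by the median level of the 8 positive members minus the median of the 2 negative members on each array, with the brightest probe for Saa1. Each probe has its own brightness, so the value on a single array cannot be read by itself. The genes in the middle of the order also differed between arrays. They were Saa2 and Orm1 on STD replicate 1, Saa3 and Hpx on STD replicate 4, and Saa3 and Saa1 on ATH replicate 1. A change of this value between arrays therefore mixes the brightness of different probes and is not the fold change of a gene. It was -2.12, -1.89, -1.66 and 1.36 on STD replicates 1 to 4 and -0.19, 0.10, 0.82 and 1.01 on ATH replicates 1 to 4. Within each diet it rose with the replicate number, which is also the position on the slide. Both Saa1 probes and Saa2 rose in that order in both diets, and the other positive members did not. Whether slide position had a part in this was not tested. STD replicate 4 had the highest value, and each ATH diet array was higher than STD replicates 1 to 3. The mean was -1.08 ± 1.63 on the STD diet and 0.44 ± 0.57 on the ATH diet (SD, n = 4 each), a difference of 1.52 within 1 SD of the STD diet arrays, and 2.33 without STD replicate 4. Each array's scaling cancels in this value, so it was 1.52 with no scaling as well.

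**Figure D4:**
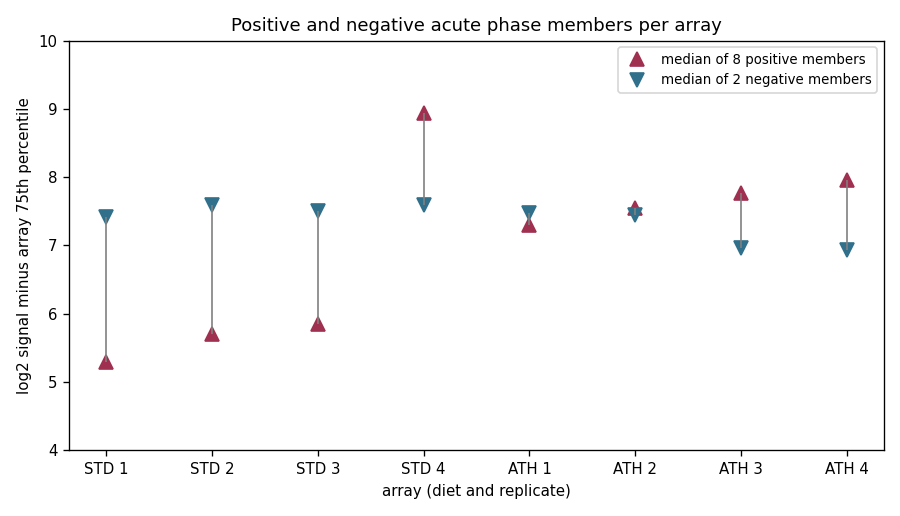
Median scaled log2 level of the 8 positive members (upward triangles) and of the 2 negative members (downward triangles) on each array. Different genes set the positive median on different arrays, so its changes also hold differences in probe brightness. The positive median runs from 5.29 to 5.85 on STD replicates 1 to 3, reaches 8.94 on STD replicate 4 and lies at 7.29 to 7.95 on the ATH diet arrays, whereas the negative median stays between 6.94 and 7.59.

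Further positive acute phase genes were read from a list of 24, all detected. Of these, 2 were higher and 1 lower on the ATH diet by limma at 0.05, with a median difference of -0.04 (0.41 with no scaling), where the median of all detected probes was -0.15 and 3.06% of them were called higher and 4.94% lower. The 2 that rose were Il1rn, which encodes the interleukin-1 receptor antagonist (2.99, SE 0.61, limma adjusted p = 0.0291), and Cd14, a co-receptor for lipopolysaccharide (2.56, SE 0.65, limma adjusted p = 0.0478). Agt, which encodes angiotensinogen, fell by 0.64 (limma adjusted p = 0.0425), and its difference was -0.20 (limma adjusted p = 0.254) with no scaling and -0.33 when scaled on spike-in probes or by quantiles. With the replicate number as a block, Agt and Cd14 did not pass (limma adjusted p = 0.0735 and 0.0524).

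On STD replicate 4, 13 of the 24 were the highest of all 8 arrays, against 15.7% of all detected probes. Above the other 3 STD diet arrays were 18 of the 24, a count for which no share over all probes was taken. Orm3 read 3.60 there, -0.07 to 0.29 on STD replicates 1 to 3 and 1.61 to 3.03 on the ATH diet. Fgl1, a fibrinogen-like protein of hepatocytes, read 6.99 there, 4.504 to 5.29 on STD replicates 1 to 3 and 4.604 to 5.51 on the ATH diet. Apcs, which encodes serum amyloid P, read 3.28 there, 1.24 to 1.73 on STD replicates 1 to 3 and 1.47 to 1.62 on the ATH diet. Orm3 was thus high on that array and on the ATH diet arrays, and Fgl1 and Apcs on that array with the ATH diet arrays near STD replicates 1 to 3. Serpina3n, Lrg1 and Itih4 had gaps of 1.82, 1.64 and 1.32 to the median of STD replicates 1 to 3. The fibrinogen genes Fgb and Fgg and the complement gene C3 had gaps of 0.03, 0.13 and 0.13. Without STD replicate 4, only Orm3 of the 24 passed at 0.05 (2.16, limma adjusted p = 0.0361).

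The list of 12 other negative acute phase genes had 0 called higher and 1 lower, with a median difference of -0.35 that was 0.10 with no scaling and 0.10 with quantile normalization. The one that fell was Fetub, which encodes fetuin B (fell by 0.60, limma adjusted p = 0.0386). The Fetub difference was -0.15 (limma adjusted p = 0.310) with no scaling, -0.28 by quantiles and -0.29 on spike-in probes, and with the replicate block its limma adjusted p was 0.0739. The 4 genes of the albumin family (Alb, Afp, Afm and Gc, the last on the former list as well) had 0 called by limma or the methods' test, 2 with an unadjusted limma p under 0.05, and a median of -0.37 (0.07 with no scaling). On STD replicate 4 the 12 negative genes had a median gap of 0.01 to STD replicates 1 to 3. That array was the highest of all 8 for 5 of the 12, against 15.7% of all detected probes.

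The cytokines and receptors that act on acute phase genes were read from a list of 16, of which 15 were detected and Lif had no probe. Of these, 4 were higher and 1 lower on the ATH diet, with a median of 0.27. Tnf, which encodes tumor necrosis factor, had levels of -4.75, -4.66, -4.63 and -5.36 on the STD diet and of -1.73, -4.19, -0.59 and -0.24 on the ATH diet. The diets did not overlap, and STD replicate 4 had the lowest level of all 8 arrays, from a spot not well above background. Its difference was 3.16 (SE 0.75, limma adjusted p = 0.0412), with a limma adjusted p of 0.0646 under the replicate block, and 1.49 (limma adjusted p = 0.038) with normexp background correction.

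Il1b, which encodes interleukin-1 beta, read -1.84, -2.42, -1.64 and -2.50 on the STD diet and 0.02, -1.15, 1.61 and 1.34 on the ATH diet. STD replicate 4 was again the lowest array. The difference was 2.55 (SE 0.56, limma adjusted p = 0.0342). Il6, which encodes interleukin-6, read -4.77, -5.06, -4.71 and -3.78 on the STD diet and -3.43, -3.56, -3.30 and -3.08 on the ATH diet. Here STD replicate 4 was the highest of its diet and still below every ATH diet array. The Il6 difference was 1.24 (SE 0.26, limma adjusted p = 0.0314), and 1.505 (limma adjusted p = 0.0105) without STD replicate 4. With normexp background correction it was 0.27 (limma adjusted p = 0.0996), and 0.36 (limma adjusted p = 0.0633) without that array. Il1r1, the signalling receptor of interleukin-1, rose by 1.47 (limma adjusted p = 0.0443) and Lifr, the leukemia inhibitory factor receptor, fell by 1.17 (limma adjusted p = 0.0110). Without STD replicate 4, Il6 and Lifr passed at 0.05, and Tnf, Il1b and Il1r1 had adjusted p of 0.0979, 0.0848 and 0.0935. Of this list, only Il22, a hepatocyte-directed cytokine, stood over 1 log2 unit above STD replicates 1 to 3 on STD replicate 4, at -3.16 against -5.58 to -4.61, from a spot that was well above background on 6 of the 8 arrays.

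Of 15 signalling and transcription factor genes, 1 was higher and 0 were lower, with a median of 0.11. It was Jak2, a kinase bound to cytokine receptors (0.65, limma adjusted p = 0.0416). Stat3 differed by 0.16 (limma adjusted p = 0.638), Socs3, the feedback inhibitor of that pathway, by 0.36 (limma adjusted p = 0.784), Cebpb by -0.18 (limma adjusted p = 0.721) and Cebpd by 0.81 (limma adjusted p = 0.142). Socs3 read 1.35, 1.21, 4.33 and 2.09 on the STD diet, with replicate 3 and not replicate 4 the highest, and 1.55, 1.68, 3.63 and 3.56 on the ATH diet. On STD replicate 4, 0 of the 15 stood over 1 log2 unit above the other STD diet arrays, where 0.715% of all detected probes did. At that share a count of 0 says little about these genes.

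**Figure D5:**
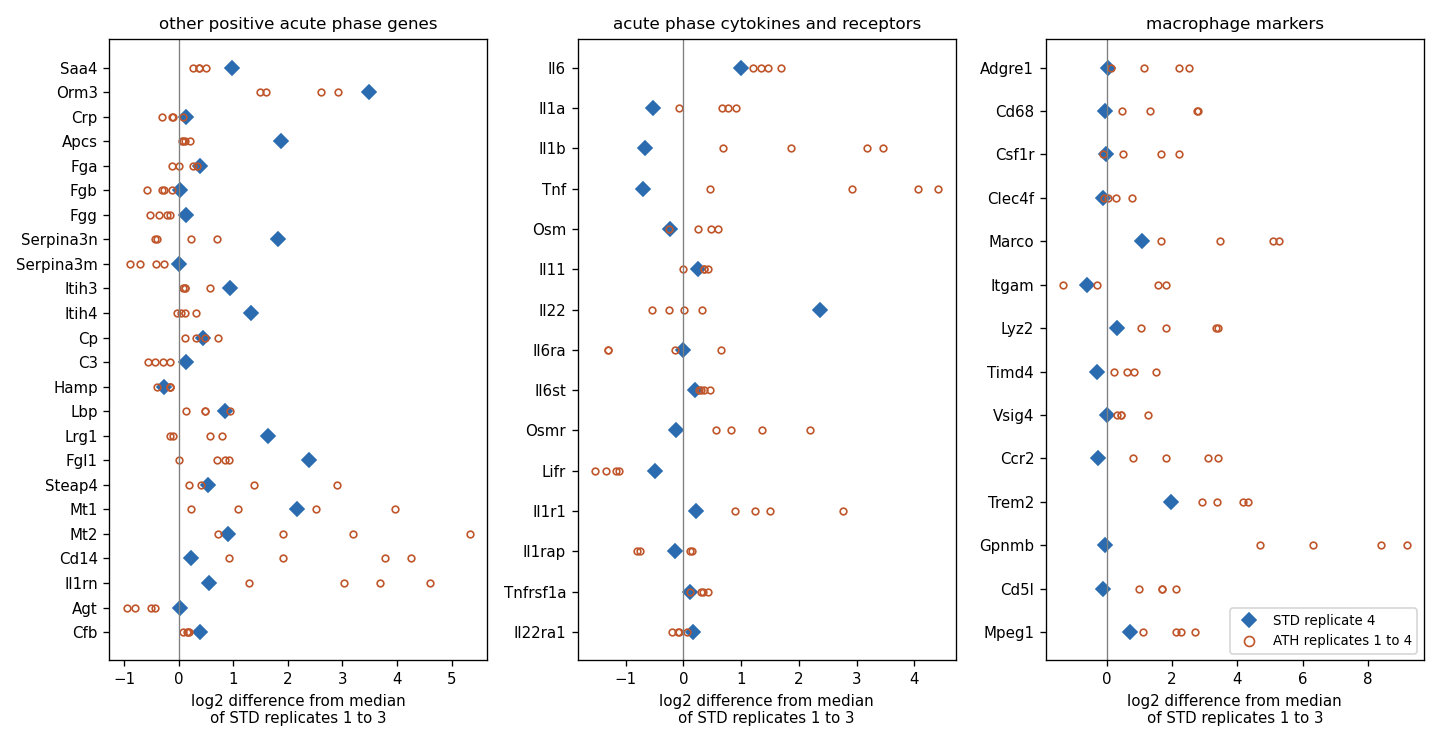
Log2 difference of STD replicate 4 (diamonds) and of ATH replicates 1 to 4 (circles) from the median of STD replicates 1 to 3, for the genes of 3 lists. Among the positive acute phase genes the diamond is the rightmost symbol for Orm3, Apcs, Serpina3n, Lrg1 and Fgl1. For Tnf, Il1b, Cd68 and Gpnmb (not well above background on the STD diet) it lies near or left of 0 with the ATH diet arrays to the right. Other genes of these 2 lists go the other way, and for Il6, Il22 and Trem2 the diamond lies right of 0.

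Markers of other cells that can make Saa3 and Lcn2 were read beside these results. Of 14 macrophage markers, 8 were higher and 0 lower on the ATH diet, with a median difference of 1.79. The list's summed scaled level (on the linear scale) was 103 to 118 on STD replicates 1 to 3, 126 on STD replicate 4 and 203 to 826 on the ATH diet arrays. The brightest probes weigh most in this sum. The list's median scaled log2 level was 1.31 to 1.53 on the STD diet arrays (1.51 on STD replicate 4) and 1.69 to 3.25 on the ATH diet arrays. The largest differences among those called were Gpnmb (at least 32.4-fold higher, taken against the dimmest signal well above background on each STD diet array, limma adjusted p = 0.00677), Marco (3.43), Trem2 (3.16), Ccr2 (2.34) and Lyz2 (2.27). With STD replicate 4 left out, 4 of the 14 passed. On STD replicate 4 the list's median gap was -0.03, and Trem2 alone stood over 1 log2 unit above the other STD diet arrays. The part of macrophages in the Saa3 and Lcn2 differences between diets was not tested.

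Of 14 neutrophil markers, 12 were detected. Of these 0 were higher and 1, Itgb2l, was lower (fell by 0.70, limma adjusted p = 0.0352), with a median of 0.43. Of the defining markers, the granule protease gene Elane was not detected and Ly6g had no probe. The summed level was 1.92 to 3.71 on STD replicates 1 to 3, 3.85 on STD replicate 4 and 3.53 to 15.0 on the ATH diet arrays, and its largest term was S100a9, which read 1.35 on STD replicate 4 and 1.30 to 3.63 on the ATH diet. On STD replicate 4 the list's median gap was 0.07, and 2 of the 12 stood above the other STD diet arrays. Prtn3, which encodes proteinase 3, alone did so by over 1 log2 unit. It read -2.01 on STD replicate 4 and -4.07 to -3.41 on the other 7 arrays.

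Of 8 adipocyte markers, 7 were detected, 0 were higher and 1 was lower (Pparg, fell by 1.15, limma adjusted p = 0.0208), with a median of -0.61. Hepatocyte markers had 0 higher and 5 lower of 16 (Tat, Arg1, Ass1, Tdo2 and Hpd, by 0.61 to 1.05), with a median of -0.48 that was -0.03 with no scaling. Of 14 receptors and binding partners of the members, 3 were higher and 0 lower: Tlr2 (2.81), Tlr4 (1.16), both Toll-like receptors, and Scarb1 (0.69), the receptor for high-density lipoprotein. Cd163, the scavenger receptor for haptoglobin with hemoglobin, differed by -1.33 (limma adjusted p = 0.109), and Hmox1, the heme oxygenase, by 1.29 (limma adjusted p = 0.200).

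Most of these list counts were smaller in the blocked fit and in the fit without STD replicate 4. With the replicate number as a block, where 4.26% of all detected probes passed, 1 of the 24 other positive genes was called, 0 of the 12 negative genes, 5 of the 15 cytokines and receptors (with Osmr in place of Tnf), 0 of the 15 signalling genes, 6 of the 14 macrophage markers (Cd68 and Ccr2 did not pass), 3 of the 12 neutrophil markers (S100a8, S100a9 and Itgb2l), 1 of the 16 hepatocyte markers (Tat) and 1 of the 14 receptors and partners (Tlr2). With no scaling every difference was 0.45 log2 units higher, and 22.5% of all detected probes were called higher. That fit therefore favours calls higher on the ATH diet and is no check of them. Of the 18 distinct list genes called higher with all 8 arrays, 18 passed there as well. Of the 10 called lower 3 did (Lifr, Pparg and Tat). With STD replicate 4 left out, 502 of the 31056 detected probes passed, against 2483 with all 8 arrays. Leaving out STD replicate 1 or 3 left fewer, 432 and 394. Without STD replicate 4, Tat was the single hepatocyte marker called by limma at 0.05. Of the negative, signalling, neutrophil and adipocyte genes and of the receptors and partners, 0 were called. At so low a share of all probes, a count of 0 says little about these genes.

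Lcn2 had the largest difference of the members with an unsaturated probe, and the 5 genes outside the member list whose levels followed it most closely over the 8 arrays were Chil1 (Pearson r = 0.978), Ctsz (0.975), Orm3 (0.969), Tnfrsf1b (0.959) and Hcst (0.956). These are descriptions over 8 arrays of 2 diets, chosen as the highest among all named probes. Chil1, which encodes a chitinase-like protein, read -3.96 to -3.65 on STD replicates 1 to 3, -1.51 on STD replicate 4 and -3.17 to -1.87 on the ATH diet. Ctsz (cathepsin Z) and Tnfrsf1b (a tumor necrosis factor receptor) had narrow ranges, with 5.83 and -2.13 on STD replicate 4.

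Since the Saa and Lcn2 probes moved together on these arrays, the 250 bases before their transcription starts are given from RefSeq (GRCm38.p6), 5′ to 3′ on the gene's strand. The table holds 1 start for each of these genes. For Saa2 and Lcn2 it is the end of the gene's annotated span, whereas for Saa1 it lies 201 bases and for Saa3 3939 bases inside the span, so that 201 of the 250 bases of the Saa1 window and all 250 of the Saa3 window fall within the annotated gene. The windows are chr7:46742981-46743230 (Saa1, minus strand), chr7:46751583-46751832 (Saa2, plus strand), chr7:46715677-46715926 (Saa3, minus strand) and chr2:32387740-32387989 (Lcn2, minus strand). Capitals mark matches, on either strand, to the NF-kappaB letters (GGG, any 5 bases, then CC), the STAT letters (TTC, any 3 bases, then GAA) or the C/EBP letters (TT, any 2 bases, G, any base, then AA).
Saa1: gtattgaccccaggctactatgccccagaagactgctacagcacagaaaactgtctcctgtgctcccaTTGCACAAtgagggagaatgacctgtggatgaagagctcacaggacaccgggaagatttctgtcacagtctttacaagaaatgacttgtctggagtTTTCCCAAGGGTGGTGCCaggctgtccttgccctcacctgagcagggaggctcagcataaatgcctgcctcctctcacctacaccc
Saa2: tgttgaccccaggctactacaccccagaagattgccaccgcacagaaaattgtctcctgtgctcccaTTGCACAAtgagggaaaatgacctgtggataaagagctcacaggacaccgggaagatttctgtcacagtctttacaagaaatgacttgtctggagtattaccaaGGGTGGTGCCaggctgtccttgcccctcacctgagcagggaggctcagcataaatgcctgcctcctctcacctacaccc
Saa3: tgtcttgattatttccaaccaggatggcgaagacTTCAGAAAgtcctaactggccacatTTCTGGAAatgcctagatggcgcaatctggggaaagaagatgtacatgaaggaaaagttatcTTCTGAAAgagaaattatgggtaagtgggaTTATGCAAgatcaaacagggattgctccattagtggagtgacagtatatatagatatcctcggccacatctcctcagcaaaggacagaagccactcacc
Lcn2: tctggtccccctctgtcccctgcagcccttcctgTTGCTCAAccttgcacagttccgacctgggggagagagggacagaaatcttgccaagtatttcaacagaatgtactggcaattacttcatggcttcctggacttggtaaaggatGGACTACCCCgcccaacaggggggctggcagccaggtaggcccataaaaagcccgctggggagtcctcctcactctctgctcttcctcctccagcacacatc

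The Saa1 and Saa2 windows were 94.8% identical in a global alignment, and Saa1 and Saa3 48.9%. Saa1, Saa2 and Lcn2 each held 1 NF-kappaB match and Saa3 held 0, where 45.8% of the 32851 promoters in the table held at least 1. C/EBP letters matched 2 times in Saa1, 1 time in Saa2, 4 times in Saa3 and 1 time in Lcn2, and 36.8% of all promoters held at least 1. In Saa1 a C/EBP match and the NF-kappaB match adjoin and print as 1 run of capitals. STAT letters were found in none of the 4 windows and in 7.02% of all promoters. Of the other members in the table, Orm2 and Hpx had 2 C/EBP matches each and Alb had 4, with 0 for the other motifs. These short patterns occur by their letters alone in many promoters, and a match is no evidence of binding. Orm1, Hp and Ttr were not in the table.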

How the data were processed

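Liver RNA of 8 mice was hybridized to 1-color Agilent 4x44K arrays, 4 per diet. The authors quantified the scans with Agilent Feature Extraction (version 9.5 in the submitters' processing notes), and the deposited files hold background-subtracted processed intensity values per spot. A GeneSpring table of log2 values, deposited beside them, was used as an alternative. Diet groups came from the sample titles.

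Spots of a probe were averaged without flagged spots, and the 75th percentile of the array was subtracted from the log2 intensity. A probe was kept when detected on at least 3 of 4 arrays of a diet (31056 of 41174). Diets were compared with limma 3.58.1 in R 4.3.3 (lmFit, then eBayes; two-sided p adjusted by Benjamini-Hochberg over all detected probes and called at 5%), and the steps were tested on simulated data. Tables were made in Python 3.11.15. Genes of lists were read by their brightest detected probe. Probes were named by accession (22951), symbol (6659) or synonym (3109), and 8455 stayed unnamed. The text names every member, the called genes of each list (up to 5 of the largest differences), 7 fixed cytokine and signalling genes and the 5 genes most like Lcn2. Others were named after their values were seen. The members and lists were chosen with earlier results of these data known.

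Same-numbered arrays occupy the same position on the slides. Their deviations from the mean of the diet had correlations of 0.1001, 0.2296, 0.1815 and 0.1766 over probes. For each STD diet array the same-numbered ATH diet array was the best match. Neither the sample titles nor the study's methods describe matched mice. The main fit was not blocked, and a blocked fit by replicate number was an alternative. P-values measure the spread between 4 mice per diet, whose number limits the precision. Other alternatives covered background, scaling, filter, test, threshold, naming and each array left out. Combinations with STD replicate 4 left out, and the member list by exact symbol, were added after the data were seen.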

Additional observations from a re-analysis of the deposited data

Results flagged for a closer look

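With 4 arrays per diet, the gap of the highest or lowest array to its nearest neighbour was divided by the range of the diet and set against Dixon's critical value for 4 samples. Chance passes about 1 in 20 single groups, but that rate is no expectation for the counts here. The groups share the same arrays, and STD replicate 4 had been singled out on these member values. The share over all detected probes was not taken. Among the 11 member probes and 2 diets, 5 of 22 passed, all with STD replicate 4 as the highest STD diet array: Lcn2 (0.921), Hpx (0.892), Saa2 (0.856), Saa3 (0.856) and the unspliced Saa1 probe (0.835). None passed on the ATH diet. Of the genes named from the lists, Tnf passed with STD replicate 4 as the lowest STD diet array (0.830), Fetub with STD replicate 2 as the lowest (0.842), Cebpd with STD replicate 3 as the highest (0.869) and Hpd with STD replicate 1 as the highest (0.872). Itgb2l passed with ATH replicate 1 as the lowest ATH diet array (0.912).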

How the results depend on the processing

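The count of member probes called at 5% was 0 with all 8 arrays and the same under each alternative with all arrays except no scaling. There it was 1 (Hpx), where 22.5% of all detected probes were called higher. With 1 array left out it ranged from 0 to 5, and the 5 came from leaving out STD replicate 4 (0.609% of all detected probes called higher). With that array left out, the count was 8 with no scaling, 5 with median scaling, 6 with quantile normalization, 6 with spike-in scaling, 6 with normexp and 4 with the replicate block, in which Lcn2 was lost. The replicate block with all arrays called 0 of 11 members and changed no member's call. The members by exact symbol (9 probes) gave 0 as well. The difference in positive minus negative level ranged from 1.17 (without STD replicate 1) to 2.33 (without STD replicate 4) with 1 array left out, and from 1.33 to 1.52 otherwise.

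Of 128 distinct detected list genes, 28 were called (18 higher, 10 lower). The count was 46 with no scaling, 53 with normexp, 11 without the detection filter, 0 by the methods' test and 18 with the replicate block. The calls over all probes moved in the same direction. They were 2483 in the main fit and, in the order of these settings, 7364, 6394, 1086, 22 and 1322. With 1 array left out the list count ranged from 5 (without STD replicate 3) to 52 (without ATH replicate 2). Over all detected probes 394 and 3979 were called in these 2 fits. Each named list gene that was called was lost under at least 1 alternative. With STD replicate 4 left out and another scaling the list count was 8 (median), 7 (quantile), 9 (spike-in) and 12 (normexp), and 1 with the replicate block. Over all detected probes the calls were 417, 459, 522, 1036 and 26 in that order. The cause was not tested.

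Directions of uncalled members turned with scaling. Orm1 was 0.37 with no scaling, 0.22 with quantile normalization and 0.23 with spike-in scaling. Orm2 was 0.44, 0.32 and 0.31 in these settings, 0.069 with median scaling and 0.073 with normexp. Hp was 0.37, 0.34 and 0.23, Ttr 0.23, 0.022 and 0.095, and Alb 0.027 with no scaling and 0.026 with quantile normalization. Cebpb was 0.27, 0.093 and 0.13. With 1 array left out, Orm1 ranged from -0.27 to 0.25, Orm2 from -0.23 to 0.42, Hp from -0.19 to 0.086 and Cebpb from -0.43 to 0.094. Without STD replicate 4, in the order no scaling, median, quantile, spike-in, normexp and replicate block, Orm1 was 0.68, 0.34, 0.53, 0.56, 0.28 and 0.18, Orm2 was 0.85, 0.51, 0.74, 0.73, 0.49 and 0.32, and Hp was 0.51, 0.17, 0.47, 0.39, 0.13 and 0.13. There Ttr was 0.26 (no scaling), 0.070 (quantile) and 0.14 (spike-in), Alb was 0.026 (quantile), Cebpb was 0.29 (no scaling), 0.12 (quantile) and 0.17 (spike-in), and Socs3 was -0.0092 with the replicate block. Alb is limited by signals near saturation.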
